A study of Mus musculus with 4 samples.

Results

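The respiratory chain genes encoded in the nucleus were followed through the peak lists of ATAC-seq libraries from RAW264.7, a cell line of mouse macrophages. A gene belonged to the set if it was a protein-coding gene on a nuclear chromosome of mm10 and its symbol began with Nduf, Uqcr, Cox4, Cox5, Cox6, Cox7, Cox8 or Atp5, or was Sdha, Sdhb, Sdhc, Sdhd or Cyc1. This gave 97 genes of 21887 protein-coding genes, and 96 of 21468 could be given a strand and hence a transcription start site (TSS). ATAC-seq uses the transposase Tn5 to cut and tag accessible DNA, so a peak marks a stretch of open chromatin. All 4 libraries came from cells kept with 25 ug/mL DIL-oxLDL, an oxidized low-density lipoprotein with a fluorescent label, for 24 h. The 2 control libraries had the solvent DMSO and no esculetin, and the 2 esculetin libraries had 40 ug/mL of this plant coumarin over the same time. The labels do not say that replicates came from separate cultures, so the spread between them may be technical.

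Electrons from NADH enter the respiratory chain at complex I and those from succinate at complex II, and pass through complex III and cytochrome c to complex IV, where oxygen is reduced. The protons pumped on the way drive ATP synthase, complex V. Most subunits are encoded in the nucleus, while mitochondrial DNA encodes a small core, and the nuclear promoters are known targets of factors such as NRF1, GABP (an ETS factor) and YY1. In macrophages the balance between respiration and glycolysis is known to shift with activation.

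The lists differed in length before any gene was considered. There were 19595 peaks in control replicate 1 and 27833 in control replicate 2, against 8677 in esculetin replicate 1 and 12792 in esculetin replicate 2. Background coverage solved from the lists, a measure of depth, was 6.51 and 4.08 for control and 4.97 and 4.10 for esculetin. Control replicate 2 stood apart, since pseudogenes held 54.6% of its 1000 strongest peaks against 0.4% to 1.9% in the other libraries. Among 12 macrophage marker genes, 5 and 8 had a peak at the promoter in the controls, and 1 and 3 after esculetin. Of all coding genes, 37.3% and 38.8% had one in the controls and 27.9% and 34.9% after esculetin, so these groups did not overlap either. Only Spi1 had one in all 4, and Csf1r, Adgre1, Itgam and Mpeg1 had one in none. None of 30 markers of 7 other lineages had one in any library.

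A promoter was called open in a library when the summit of a peak lay within 1 kb of the TSS. By that measure 71 and 72 of the 96 genes were open in the controls (replicates 1 and 2), and 54 and 71 after esculetin (replicates 1 and 2). Of all coding genes, 37.3%, 38.8%, 27.9% and 34.9% were open by it in the same libraries. The counts of the 2 controls and esculetin replicate 2 were thus within 1 gene of each other. Esculetin replicate 1, with the shortest list, stood below them. The open genes were not all the same. Control replicate 2 and esculetin replicate 2 shared 63, with 9 open only in this control and 8 only in this esculetin library. The means were 71.5 ± 0.707 and 62.5 ± 12.02 genes (SD, n = 2 each), a difference of -9. This was just beyond the pooled SD of 8.51 genes and within the SD of the esculetin group. Leaving out esculetin replicate 1 gave a difference of -0.5, leaving out esculetin replicate 2 gave -17.5, and leaving out a control gave -9.5 (replicate 1) or -8.5 (replicate 2). When only the 8677 strongest peaks of each list were kept, 55 and 38 genes were open in the controls. After esculetin 54 and 61 were, so that the direction turned to a difference of 11. The groups overlapped in this setting, and control replicate 2 was the low library. Over all coding genes this setting gave 25.5% and 18.1% in the controls and 27.9% and 30.2% after esculetin.

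Across the 4 libraries, 49 of the 96 genes (51.0%) were open in every list, against 24.8% of all coding genes. Another 15 (15.6%) were open in none, against 56.4% of all coding genes. Among these 15 were the ATP synthase subunits Atp5d and Atp5g3 and the cytochrome c oxidase subunits Cox5a, Cox6c and Cox7b. The commonest partial pattern was a peak missing from esculetin replicate 1 alone, which 14 genes showed (14.6%, against 5.57% of all coding genes). Among those 14 was Atp5a1, which codes for the alpha subunit of ATP synthase. The same pattern was shown by 13 of 78 mitochondrial ribosomal protein genes, 9 of 89 cytosolic ones and 4 of 40 proteasome genes.

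**Figure D1:**
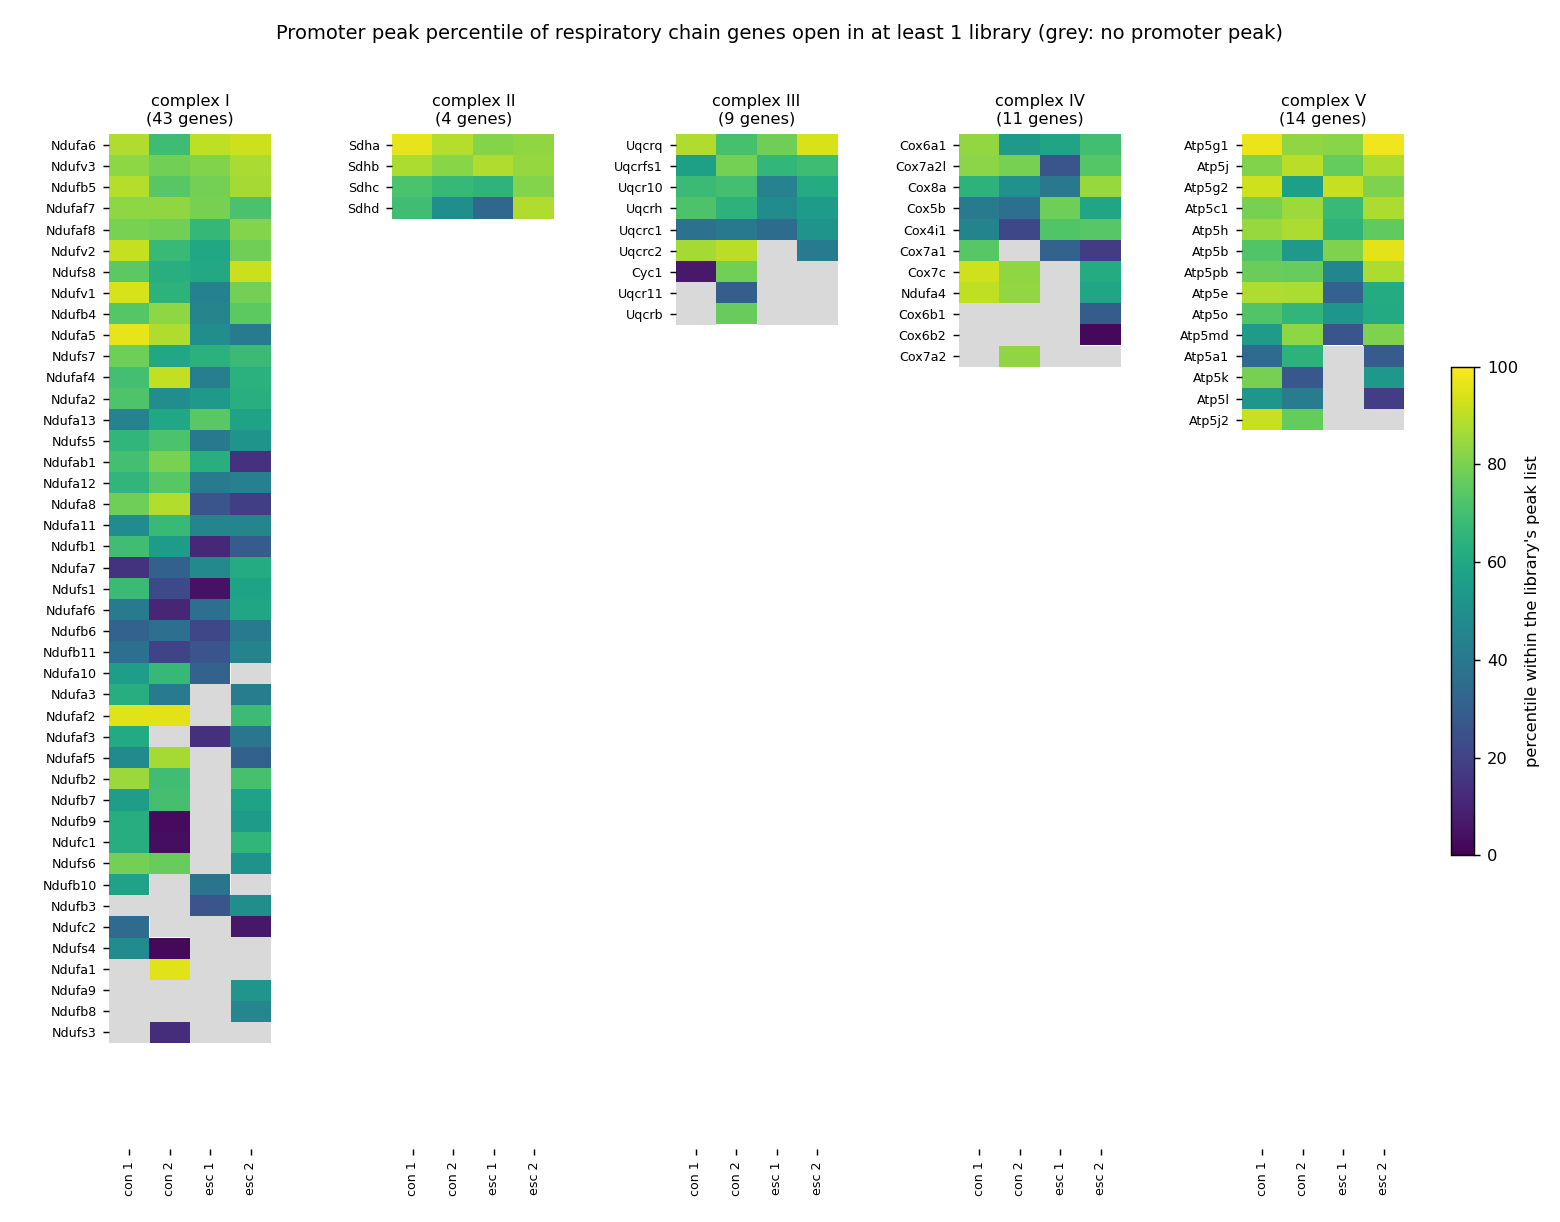
Percentile of the promoter peak of the 81 genes open in at least 1 library (rows) in control replicates 1 and 2 (con) and esculetin replicates 1 and 2 (esc), by complex. Colour runs from 0 to 100 within a library's own list and grey marks genes with no promoter peak: the 4 genes of complex II have no grey cell, while the lower rows of complexes I, III, IV and V have grey cells.

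The complexes differed in how many of their genes were open. All 4 genes of complex II, succinate dehydrogenase, were open in all libraries. Complex V had 10 of 16 subunits open in all libraries, complex III 5 of 9, complex I 21 of 39 and complex IV 4 of 11. Of all coding genes, 24.8% were open in all libraries. Starts further inside a gene, as in Cox5a and Atp5d, did not enter these counts. Counts for single libraries were 31 and 31 in the controls and 24 and 31 after esculetin for complex I subunits, and 14 and 14 against 10 and 13 for complex V. Complex III had 7 and 9 open genes in the controls and 5 and 6 after esculetin. The groups did not overlap in the counts of complexes III and V, as was also the case over all coding genes, with 8009 and 8321 in the controls and 5982 and 7496 after esculetin. Complex IV subunits were open at 6 and 7 genes in the controls and at 4 and 7 after esculetin. Of 9 assembly factors, 5 were open in all libraries. No comparison between complexes was tested, since genes are not replicates of a condition.

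**Figure D2:**
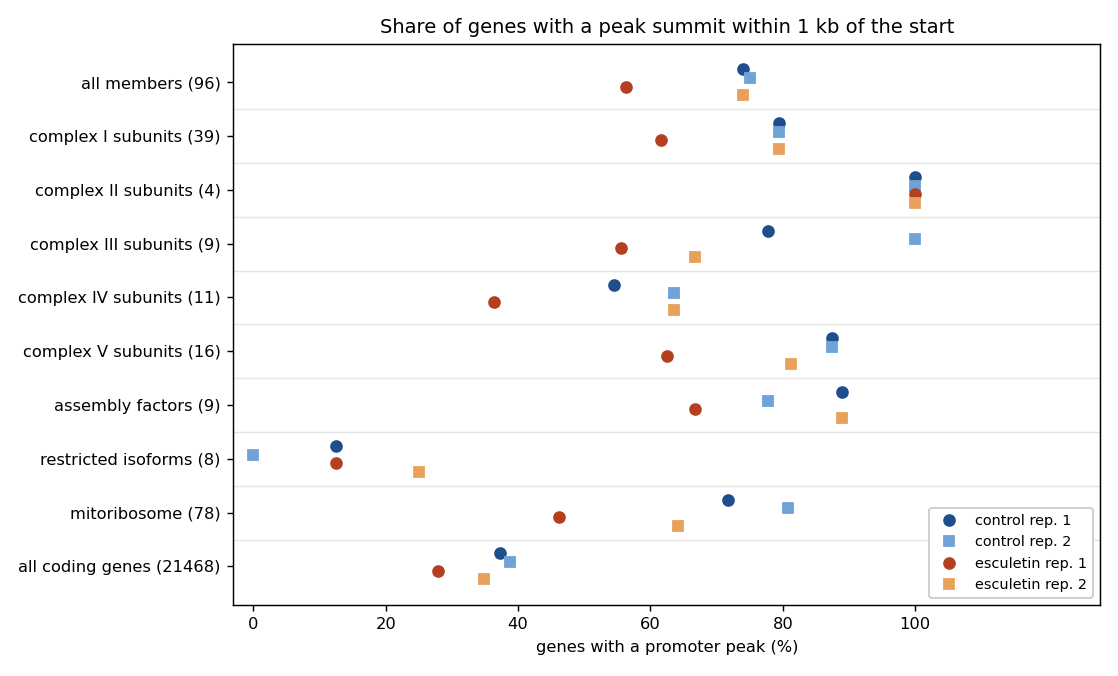
Share of genes with a promoter peak (x axis, percent) in each of the 4 libraries, for all members, each complex, assembly factors, tissue-restricted isoforms, mitochondrial ribosomal proteins and all coding genes. Numbers of genes are in parentheses, and esculetin replicate 1 is lowest or shares the lowest place in each row except that of the restricted isoforms.

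How strong a promoter peak was within its list was given as a percentile, from 0 for the weakest to 100 for the strongest peak by the −log10 p of its summit. Among the 49 genes open in all libraries, the median percentile was 73.0 and 69.0 in the controls and 54.0 and 71.4 after esculetin. The same medians over the 5323 coding genes open in all libraries were 80.2, 75.2, 63.8 and 76.1, above the respiratory chain genes in each library. Esculetin replicate 1 was again the low library in either set. With the 8677 strongest peaks of each list the difference of group means turned from -8.31 to 17.4, with medians over 22 genes of 61.2 and 38.5 in the controls and 66.2 and 68.4 after esculetin. The coding medians in that setting were 74.98 and 48.9 against 74.7 and 76.8. Control replicate 2 was the low library there in either set. The percentiles ranged from 14.5 (Ndufa7) to 97.2 (Atp5g1) in control replicate 1 and from 10.6 (Ndufaf6) to 90.6 (Ndufaf4) in control replicate 2. In esculetin replicate 1 they ranged from 5.00 (Ndufs1) to 91.3 (Atp5g2), and in esculetin replicate 2 from 14.1 (Ndufab1) to 98.0 (Atp5g1). The order of the 49 genes was more alike within groups, with a Spearman correlation of 0.57 between the controls and 0.58 between the esculetin libraries, than across them (0.19 to 0.51). These correlations are over genes of the same lists, and over the 5323 coding genes they were 0.67 in both groups and 0.44 to 0.55 across.

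The groups were next compared gene by gene. Of the 49 genes, 5 (10.2%) had both esculetin percentiles above both control percentiles, against 14.7% of all coding genes open in all libraries. In the other direction 16 (32.7%) had both esculetin percentiles below both controls, against 29.5%. Both shares lay near those of all coding genes. For any single gene with groups that do not overlap, the exact two-sided permutation test over 6 assignments of the 4 libraries gives p = 0.33, which is the smallest it allows with n = 2 per group. Percentiles taken only among promoter peaks gave 8 higher (16.3%) and 13 lower (26.5%), against 18.4% and 29.4% of all coding genes. All 5 higher genes and 13 of the 16 lower genes kept their place there. With the 8677 strongest peaks of each list, 12 of 22 genes were higher (54.5%, all coding genes 37.4%) and 2 were lower (9.09%, all coding genes 6.71%). At equal list length, higher genes thus outnumbered lower ones.

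The 5 higher genes were Cox4i1, Ndufa7, Cox5b, Atp5b and Ndufa6. Cox4i1, the common form of a nuclear subunit of complex IV, had its TSS on chromosome 8 at 120668225 (plus strand). Its percentile was 45.1 and 21.8 in the controls and 72.7 and 74.1 after esculetin, a difference of 39.9 between means of 33.5 ± 16.5 and 73.4 ± 1.01 (SD, n = 2). This was the largest positive difference of group means among the 49 genes, and the summit kept within -3 to 21 bp of the TSS in all 4 libraries. Ndufa7, an accessory subunit of complex I, was at 14.5 and 31.1 in the controls and 46.9 and 61.3 after esculetin, a difference of 31.4. Cox5b, another complex IV subunit, was at 41.7 and 36.5 against 77.8 and 58.6. Some of these promoters are shared, since the TSS of Ndufa7 lies 10 bp from that of Rps28 on the other strand, and that of Cox4i1 lies 83 bp from Gm27021.

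The largest negative difference was at Ndufa8, an accessory subunit of complex I, whose percentile was 77.8 and 88.5 in the controls and 26.3 and 18.4 after esculetin. The means were 83.2 ± 7.58 and 22.4 ± 5.61 (SD, n = 2), a difference of -60.8. Ndufa5, also an accessory subunit of complex I, was at 96.3 and 87.9 in the controls and at 49.1 and 40.7 after esculetin, a difference of -47.2. In both genes the control and esculetin libraries were well apart, and each group was narrower than the gap between them. Ndufa8 shares its promoter region with Morn5, whose TSS lies 135 bp upstream on the other strand, and Ndufa5 with Asb15 at 454 bp. The other 14 lower genes, listed after their values were seen, were Atp5e, Atp5h, Atp5o, Cox7a2l, Ndufa11, Ndufa12, Ndufab1, Ndufaf4, Ndufaf7, Ndufb1, Ndufs5, Sdha, Uqcr10 and Uqcrh. With promoter peaks alone as the reference, Ndufa11, Ndufab1 and Ndufaf7 no longer had groups apart. With the 8677 strongest peaks of each list, 10 of the 16 lower genes still had a peak in all libraries. Of these, only Atp5e and Ndufa5 stayed lower, Ndufs5 and Uqcr10 turned higher, and the groups overlapped in Atp5h, Cox7a2l, Ndufa12, Ndufaf4, Ndufaf7 and Sdha. Ndufa8 was among the 6 that lacked a value, with none in esculetin replicate 2. Of the 5 higher genes, Ndufa6 stayed higher and the other 4 had no value in 1 or both controls.

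**Figure D3:**
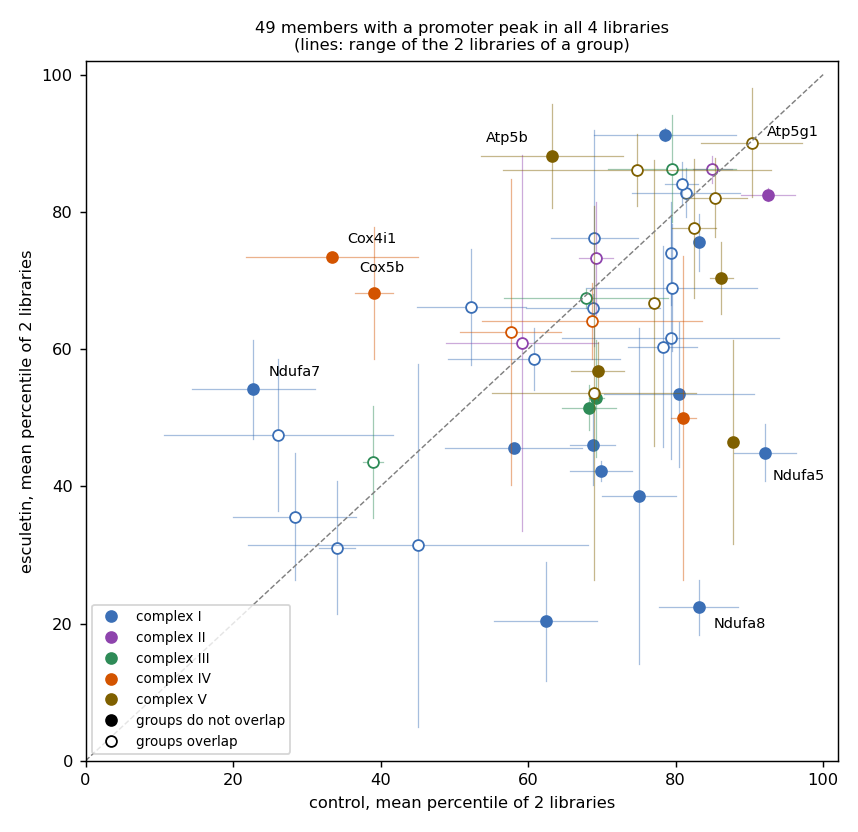
Mean percentile of the 2 control libraries (x axis) against that of the 2 esculetin libraries (y axis) for the 49 genes open in all libraries, coloured by complex, with lines from the lower to the higher library of each group. Filled points have groups that do not overlap: 5 lie above the dashed line of equality, led by Cox4i1, and 16 below it, led by Ndufa8.

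Of the genes with the 2 largest differences in each direction, Ndufa8, Ndufa5 and Ndufa7 are shown as promoter sequences from 150 bases before to 30 after the start, 5′ to 3′ along the gene, to let the letters be set beside the summits. Capitals mark the letters of an NRF1 (GCGCATGC), ETS (CCGGAAG) or YY1 (ATGGCGG) motif on either strand. The sequences are RefSeq's for GRCm38.p6, whose chromosomes are those of mm10. Cox4i1 had no entry in the promoter table. Ndufa8 lies at chr2:36049309-36049488 (minus strand), Ndufa5 at chr6:24527661-24527840 (minus strand) and Ndufa7 at chr17:33824422-33824601 (plus strand).
Ndufa8: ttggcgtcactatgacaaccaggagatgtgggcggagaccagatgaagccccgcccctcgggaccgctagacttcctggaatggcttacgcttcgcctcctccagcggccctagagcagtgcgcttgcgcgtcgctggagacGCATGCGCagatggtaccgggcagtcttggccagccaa
Ndufa5: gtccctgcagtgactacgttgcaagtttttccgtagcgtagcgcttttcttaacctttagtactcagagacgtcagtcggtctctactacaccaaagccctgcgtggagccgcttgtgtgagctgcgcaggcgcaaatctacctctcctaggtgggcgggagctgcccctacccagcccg
Ndufa7: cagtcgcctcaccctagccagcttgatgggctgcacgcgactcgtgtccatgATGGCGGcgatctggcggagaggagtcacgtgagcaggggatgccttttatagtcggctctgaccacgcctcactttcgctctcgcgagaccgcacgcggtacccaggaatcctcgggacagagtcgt
In Ndufa8 the NRF1 letters ended at the base just before the start, and the summits lay at -18, -34, -55 and -126 bp from the start in control replicates 1 and 2 and esculetin replicates 1 and 2. Ndufa5 held none of the 3 motifs in this stretch, and its summits lay 40, 49, 95 and 99 bp downstream of the start. In Ndufa7 the YY1 letters began 98 bp before the start, and its summits lay between -45 and 42 bp. A match is a description of the letters and not evidence of binding.

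Within complex I, the strongest promoter peaks among genes open in all libraries were those of Ndufa6 and Ndufv3, accessory subunits. Ndufa6 was at 88.2 and 69.0 in the controls and 90.3 and 92.2 after esculetin, and Ndufv3 at 83.1 and 78.6 against 81.0 and 87.2. The weakest was Ndufb11, an accessory subunit of the membrane arm encoded on chromosome X, at 36.7 and 20.05 against 26.3 and 44.8. Among core subunits, Ndufv1, which binds NADH, was at 94.0 and 64.6 in the controls and 43.9 and 79.2 after esculetin. Ndufs1, an iron-sulfur subunit, was at 68.1 and 22.0 against 5.00 and 57.8. The groups overlapped in both core genes, and Ndufs1 spanned 63.1 percentiles between its highest and lowest library. Its TSS lies 9 bp from that of Eef1b2, a gene of translation elongation on the other strand.

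Of the complex I assembly factors open in all libraries, Ndufaf7, a methyltransferase, and Ndufaf8 were highest. Ndufaf7 was at 82.9 and 83.5 in the controls and 79.6 and 71.4 after esculetin, and Ndufaf8 at 80.01 and 78.7 against 66.4 and 81.4. Ndufaf6 was the lowest of those open throughout, at 41.7 and 10.6 against 36.4 and 58.6. In Ndufaf6 and Ndufaf8 the groups overlapped. Some genes of complex I were called in a single group. Ndufs4, an accessory subunit, had peaks in both controls, at 48.1 and 1.96, and in no esculetin library. Ndufb3, an accessory subunit of the membrane arm, had none in the controls and was at 26.3 and 49.9 after esculetin, with its TSS 64 bp from that of Fam126b.

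Complex II was open throughout, with both catalytic subunits high in every library. Sdha, the flavoprotein that oxidizes succinate, was at 96.2 and 88.8 in the controls and 81.5 and 83.5 after esculetin, a difference of -10.0 with groups that did not overlap. At equal list length they did overlap, at 91.4 and 64.2 against 81.5 and 75.7. Sdhb, the iron-sulfur subunit, was at 87.6 and 82.3 against 88.2 and 84.2, with overlapping groups. The membrane anchors ranked lower, with Sdhc at 71.6 and 66.9 against 64.9 and 81.5 and Sdhd at 69.4 and 48.8 against 33.5 and 88.2. For Sdhd the esculetin libraries took the lowest and the highest place, a spread of 38.7 (SD, n = 2) around a mean of 60.9.

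In complex III, Uqcrq, a small accessory subunit, was highest of those open throughout, at 88.1 and 70.8 in the controls and 78.5 and 94.1 after esculetin. Uqcrfs1, the Rieske iron-sulfur protein, was at 56.7 and 78.9 against 66.0 and 68.8. Uqcrc1, a core protein, was the lowest of them, at 37.6 and 40.4 against 35.4 and 51.7. None of these 3 genes had groups apart. Cyc1, which codes for cytochrome c1, had a promoter peak in both controls and in neither esculetin library, but its control peaks were not alike. In control replicate 1 the summit lay at -26 bp from the TSS at percentile 6.92, and in control replicate 2 it lay at 883 bp, downstream of the TSS, at percentile 78.8.

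In complex IV the highest mean percentiles among genes open in all libraries were those of Cox6a1, at 83.6 and 53.7 in the controls and 58.5 and 69.6 after esculetin, and of Cox7a2l, at 82.8 and 79.4 against 26.3 and 73.6. Cox7a2l is an assembly factor that joins complexes III and IV, and its groups did not overlap, although esculetin replicate 1 alone lay far down. Cox4i1 had the lowest mean of the 5 genes open throughout. Cox5a, which pairs with Cox4i1 in the enzyme, had no peak near the 5′ end of its RefSeq gene span. A start 3904 bp further in, the one listed in the promoter table, had a peak in all 4 libraries, at 56.2 and 73.2 in the controls and 25.2 and 61.6 after esculetin.

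Common and tissue-restricted forms were then compared. The restricted genes were 7 of complex IV and Ndufa4l2, which was counted with complex I by its symbol. None of these 8 genes was open in all libraries (24.8% of all coding genes), and 6 of the 8 were open in none (56.4% of all coding genes). With 8 genes these shares are no result about the restricted forms. Cox4i2, Cox6a2, Cox7b2, Cox8b, Cox8c and Ndufa4l2 had no promoter peak in any list. Cox4i1, Cox6a1 and Cox8a, the common partners of Cox4i2, Cox6a2 and Cox8b, were open in all 4, with Cox8a at 64.5 and 50.8 in the controls and 40.1 and 84.7 after esculetin. Ndufa4, counted here with complex IV, is the partner of Ndufa4l2. It was at 90.5 and 83.8 in the controls and at 58.6 in esculetin replicate 2, with no peak in esculetin replicate 1.

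Other pairs did not follow this pattern. Cox7a1, the heart and muscle form, was at 74.1 in control replicate 1 and at 31.5 and 17.9 after esculetin, with no peak in control replicate 2. Its common partner Cox7a2 had a peak near the 5′ end in control replicate 2 alone, at 83.4. At the start listed for Cox7a2 in the promoter table, 11569 bp further in, peaks stood at 97.7 and 78.7 in the controls and 64.0 in esculetin replicate 2. Cox6b1 and the testis form Cox6b2 were both open in esculetin replicate 2 alone, at 29.6 and 2.18. Cox7b had no peak in any library, like its restricted partner Cox7b2.

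Complex V held the gene with the highest mean percentile of the 49 open in all libraries, Atp5g1, at 97.2 and 83.5 in the controls and 82.1 and 98.0 after esculetin. Atp5g1, Atp5g2 and Atp5g3 encode the c subunit of the rotor ring. Atp5g2 was at 92.9 and 56.5 against 91.3 and 80.8. Atp5g3 was not open at its 5′ end, and at a start 1138 bp further in its peaks were at 51.8 and 34.3 in the controls and 20.7 in esculetin replicate 2.

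Atp5j, a subunit of the peripheral stalk, was at 81.0 and 89.6 in the controls and 76.4 and 87.8 after esculetin. Its summits lay 859 to 945 bp inside the gene, next to the TSS of Gabpa on the other strand at 966 bp. Gabpa codes for the DNA-binding subunit of GABP. Atp5b, the catalytic beta subunit, was at 72.8 and 53.6 in the controls and 80.6 and 95.7 after esculetin, a difference of 25.0 with groups apart. Atp5a1, the alpha subunit, was at 35.0 and 64.8 in the controls and 29.0 in esculetin replicate 2, with no peak in esculetin replicate 1. Of the catalytic pair, only Atp5b thus had a value in every library. Atp5md, a small membrane subunit, had the lowest mean of the 10 genes open throughout, at 55.1 and 82.8 against 26.3 and 80.8. Atp5j2, the f subunit, was called in both controls only, at 91.7 and 76.5.

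Calls in a single group were few. Atp5j2, Cyc1 and Ndufs4 made up the 3 genes (3.13%) open in both controls and in neither esculetin library, against 3.34% of all coding genes. Ndufb3 was the 1 gene (1.04%) open in both esculetin libraries only, against 0.41%. With 96 genes, 1 gene more or less moves such a share by more than these differ. Atp5d, the delta subunit of ATP synthase, was counted among the closed genes by its 5′ end, but a start 3617 bp further in had peaks at 67.4 and 63.3 in the controls and 52.1 and 75.8 after esculetin. Counting any listed start raised the open genes to 75 and 75 in the controls and 56 and 75 after esculetin, and the share of all coding genes to 40.7%, 42.1%, 30.1% and 37.9% in the same order. Atp5mpl, the member with no strand, had a peak within 1 kb of its upper gene end in all libraries, at 56.5, 41.6, 30.0 and 27.5 in the same order, and none at its lower end.

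Within the 1 kb window that defined an open promoter, the summits lay mostly just upstream of the TSS. Over the 49 genes, the median summit lay at -49 and -48 bp in the controls and at -42 and -51 bp after esculetin. The medians over all coding genes open throughout were -32, -29, -23 and -30 bp. The group means of the members' medians differed by 2 bp, less than their spread of 4.53 bp (pooled SD, n = 2 each). Of all promoter peaks of the set, 74.6% and 80.6% in the controls and 79.6% and 80.3% after esculetin had the summit upstream, against 56.9% to 59.8% for coding genes. In 34 of the 49 genes (69.4%) the 4 summits lay within 100 bp of each other, against 57.5% of coding genes open throughout. The peaks had a median width of 493 and 438 bp in the controls and 400 and 450 bp after esculetin, and median fold enrichment was 4.80 and 5.90 against 4.74 and 6.08. The fold of the same gene depends on depth and was not compared between libraries.

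**Figure D4:**
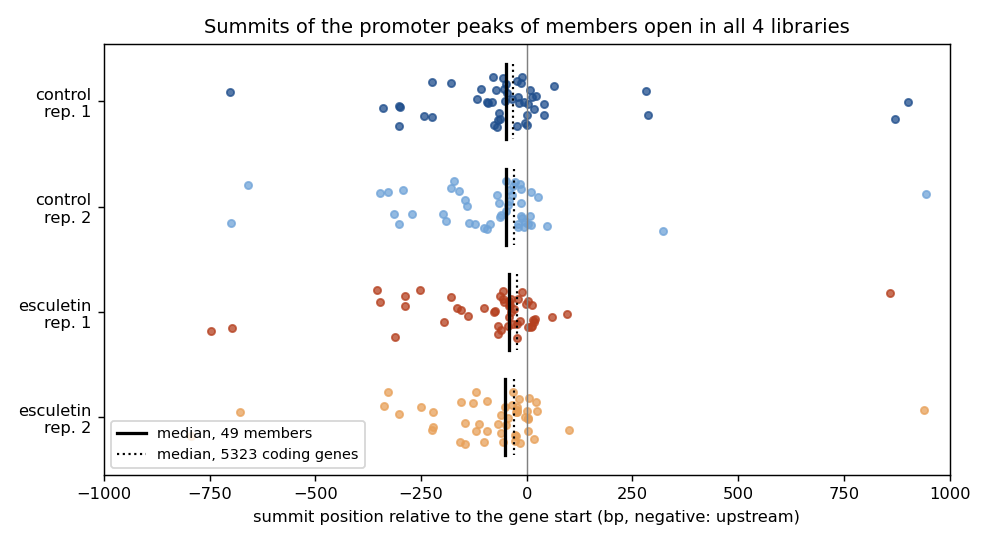
Position of the promoter summit relative to the TSS (x axis, bp, negative upstream) for the 49 genes open in all libraries, by library, with each point 1 gene. Solid bars are the members' medians, between -51 and -42 bp, and dotted bars the medians of 5323 coding genes, between -32 and -23 bp.

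Many of the promoters are shared with a neighbouring gene. Of the 96 genes, 35 (36.5%) had the TSS of a coding gene on the other strand within 1 kb, against 10.9% of all coding genes. Of those 35, 25 (71.4%) were open in all libraries, and of the 61 without such a neighbour 24 (39.3%) were. The same shares over all coding genes were 63.1% and 20.1%. A summit in such a window counts for both genes, so which of the pair it belongs to cannot be told apart. Complex I held 21 of the 35, and complex IV held 2 of 19 genes.

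The letters of 9 motifs were searched on both strands of the promoter sequences, 250 bases before to 50 after the start, which were matched for 78 of the 96 genes and 17492 coding genes. The NRF1 letters GCGCATGC stood in 12 promoters (15.4%), against 3.6% of all coding promoters and 8.1% of those open in all libraries. ETS letters (CCGGAAG) stood in 18 (23.1%), against 11.9% and 22.6%. YY1 letters (ATGGCGG) stood in 10 (12.8%), against 5.4% and 10.3%, and 9 of these 10 belonged to complex I, which made up 41 of the 78 promoters. In 69 promoters of mitochondrial ribosomal proteins the shares were 11.6% for NRF1, 34.8% for ETS and 18.8% for YY1, so that ETS and YY1 letters were more frequent there than in the respiratory chain. SP/KLF letters (GGGCGG), which share GGCGG with YY1, stood in 44.9%, against 46.3% of all coding promoters and 74.99% of those open throughout. NFY letters (CCAAT) stood in 43.6%, against 39.2% of all coding promoters and 45.9% of those open throughout. CRE letters (TGACGT) stood in 11.5%, against 8.7% and 15.7%. The ESRRA letters CAAGGTCA stood in 4 promoters, 5.1%, against 1.3% and 0.67%. A TATA box (TATAAA) stood in 10.3%, against 13.3% and 5.2%. C/EBP letters (TTGCNNAA) stood in 10.3% as well, against 10.1% and 7.1%. In the 43 promoters of the set open in all libraries, the shares were 18.6% for NRF1, 25.6% for ETS, 14.0% for YY1, 53.5% for SP/KLF, 44.2% for NFY, 14.0% for CRE, 4.7% for ESRRA, 7.0% for TATA and 14.0% for C/EBP. Sdhb, Uqcr11, Cox6a1, Atp5k and Atp5l held both NRF1 and ETS letters.

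**Figure D5:**
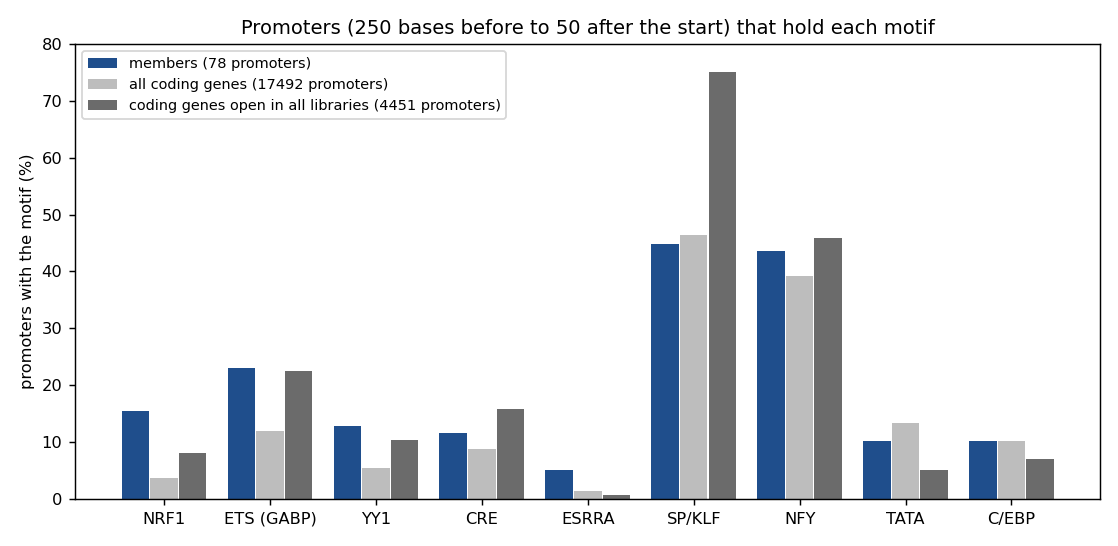
Share of promoters (y axis, percent) that hold each of 9 motifs on either strand, for 78 respiratory chain promoters, 17492 coding promoters and 4451 coding promoters open in all libraries. NRF1 stands in 15.4% of the respiratory chain promoters against 3.6% and 8.1%, and SP/KLF in 44.9% against 46.3% and 74.99%.

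Open promoters with and without these letters were counted within the set. The letters were read at the start in the promoter table, and the call was made at the 5′ end of the gene span. These lay more than 1 kb apart in Atp5d, Atp5g3, Cox5a and Cox7a2, none of which held NRF1, ETS or YY1 letters. Atp5d and Cox5a thus counted as not open, although a listed start of each had a peak in all libraries. Of the 12 promoters with NRF1 letters, 8 were open in all libraries, and of the 66 without, 35 were (66.7% and 53.0%). Of all coding promoters, 57.4% with NRF1 letters and 24.3% without were open in all libraries. The counts in the set were 11 of 18 and 32 of 60 for ETS (61.1% and 53.3%, all coding promoters 48.2% and 22.4%). For YY1 they were 6 of 10 and 37 of 68 (60% and 54.4%, all coding promoters 48.3% and 24.1%). In single libraries the 12 promoters with NRF1 letters were open at 11 and 12 genes in the controls and at 8 and 11 after esculetin, with 69.4%, 70.0%, 64.5% and 71.5% of all coding promoters with these letters. The median GC content was 57.8% in the 78 promoters, 56.3% in all coding promoters and 63.0% in those open throughout. No test was run on these shares.

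Promoters of genes with high mean percentiles for their complex, among those open in all libraries, and of core subunits are shown for each complex. Any NRF1, ETS and YY1 letters are again in capitals, and the stretches run from 150 bases before to 30 after the start. Uqcrq, the highest of complex III, had no entry in the promoter table, and Uqcrfs1 is shown as a core subunit. Ndufa6 lies at chr15:82354262-82354441 (minus strand), Sdha at chr13:74350211-74350390 (minus strand) and Sdhb at chr4:140961121-140961300 (plus strand). Uqcrfs1 lies at chr13:30545287-30545466 (minus strand), Cox6a1 at chr5:115348929-115349108 (minus strand) and Atp5g1 at chr11:96075602-96075781 (minus strand), the last of these around a start 63 bp from the gene's 5′ end.
Ndufa6: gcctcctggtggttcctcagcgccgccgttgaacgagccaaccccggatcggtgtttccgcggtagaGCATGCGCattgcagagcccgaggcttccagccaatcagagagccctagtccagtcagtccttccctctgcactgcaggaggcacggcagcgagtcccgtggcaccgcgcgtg
Sdha: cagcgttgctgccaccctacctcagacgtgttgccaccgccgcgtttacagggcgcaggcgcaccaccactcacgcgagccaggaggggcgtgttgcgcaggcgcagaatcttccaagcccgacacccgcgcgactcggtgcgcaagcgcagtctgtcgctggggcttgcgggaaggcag
Sdhb: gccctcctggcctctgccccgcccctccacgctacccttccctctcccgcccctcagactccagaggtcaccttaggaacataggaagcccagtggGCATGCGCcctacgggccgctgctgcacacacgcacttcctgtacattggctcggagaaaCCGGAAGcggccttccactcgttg
Uqcrfs1: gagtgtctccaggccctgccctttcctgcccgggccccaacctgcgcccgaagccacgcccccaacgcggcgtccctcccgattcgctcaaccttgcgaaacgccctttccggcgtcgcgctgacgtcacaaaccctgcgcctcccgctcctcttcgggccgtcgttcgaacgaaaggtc
Cox6a1: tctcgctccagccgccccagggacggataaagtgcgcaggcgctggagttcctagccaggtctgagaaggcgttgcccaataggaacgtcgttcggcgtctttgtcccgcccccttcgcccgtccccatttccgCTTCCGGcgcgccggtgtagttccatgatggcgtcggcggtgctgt
Atp5g1: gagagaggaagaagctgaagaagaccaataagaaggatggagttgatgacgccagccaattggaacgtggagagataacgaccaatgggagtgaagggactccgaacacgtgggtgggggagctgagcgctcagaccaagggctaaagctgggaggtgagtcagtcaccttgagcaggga
Sdhb held NRF1 letters from 54 to 47 bases before the start and ETS letters from 6 to 12 bases after it, and its summits in the 4 libraries lay between -31 and 24 bp. In Ndufa6 the NRF1 letters began 83 bases before the start, and in Cox6a1 the ETS letters began 16 bases before it. Sdha, Uqcrfs1 and Atp5g1 held none of the 3 motifs in these stretches, and Sdha and Atp5g1 had the highest mean percentiles of their complexes among genes open throughout.

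Peaks inside the genes, more than 1 kb from the TSS, were rarer in the esculetin libraries. Such a peak was found in 11 and 18 of the 96 genes in the controls and in 2 and 6 after esculetin, with 19.3%, 31.1%, 7.35% and 12.1% of all coding genes in the same order. The difference of means was -10.5 genes, beyond the spread of 4.03 (pooled SD, n = 2 each), and -3.5 with lists of equal length. The groups did not overlap in this count for the set, and the length of the lists moved the same way, whose part in the result was not tested. Peaks at listed starts further inside a gene were part of this count. In esculetin replicate 1 only Atp5d and Cox5a were counted, each with a peak within 1 kb of such a start. In esculetin replicate 2 this held for Atp5d, Cox5a, Atp5g3 and Cox7a2, and these genes had such peaks in both controls as well. The count without them was not made. Uqcrfs1 had a peak inside the gene near its 3′ end in both controls, at percentiles 20.1 and 93.5, and none after esculetin.

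Pseudogene copies of the set were also examined. Of 19 annotated pseudogenes with symbols of the same families, 3 and 6 held a summit in the controls and none did in the esculetin libraries. Of all 10609 annotated pseudogenes, 3.16% and 17.4% did in the controls and 0.792% in each esculetin library, so the wider set differed the same way. Cox6c2, Cox5b-ps and Atp5pb-ps did in both controls, at 36.7 and 31.1, 36.7 and 46.3, and 14.0 and 16.7. In control replicate 2, Ndufa12-ps stood at 85.9. Without peaks in pseudogenes, the difference in median percentile of the 49 genes was -9.74 in place of -8.31, with 5 genes higher and 16 lower as before.

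Other genes of the pathway were counted by the same measure. Of 31 assembly factors with other symbols, 30 and 27 were open in the controls and 16 and 24 after esculetin, and 16 were open in all libraries. The groups did not overlap, as they did not over all coding genes (37.3%, 38.8%, 27.9% and 34.9%). Of 13 electron carrier genes 7 were open in all, among them Cycs, which codes for cytochrome c, at 96.7 and 89.8 in the controls and 78.2 and 98.6 after esculetin. Of 13 regulators of respiratory genes 9 were open in all, and of all coding genes 24.8% were. The medians of these regulators were 91.5 and 85.9 in the controls and 83.7 and 90.2 after esculetin. They lay above the 49 respiratory chain genes in each library. The medians of all coding genes open throughout were 80.2 and 75.2 against 63.8 and 76.1. Gabpa was at 81 and 89.6 against 76.4 and 87.8. These are the same peaks as those of Atp5j, so they are counted on either side of this comparison. Yy1 was at 92 and 96.1 against 88.9 and 93.5. Nrf1 was lower, at 23.5 and 67.6 against 13.2 and 73.9. Ppargc1a, a coactivator of mitochondrial biogenesis, had no promoter peak in any library.

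Genes for the mitochondrial ribosome, the cytosolic ribosome and the proteasome were set beside the respiratory chain as other large complexes. Of the 78 mitochondrial ribosomal protein genes, 56 and 63 were open in the controls and 36 and 50 after esculetin, again without overlap, as over all coding genes. Their median percentile among genes open throughout was 72.2 and 66.4 in the controls and 63.0 and 71.6 after esculetin. The shares open in all libraries were 41.0% for the mitochondrial ribosome, 59.6% for 89 cytosolic ribosomal protein genes and 55.0% for 40 proteasome genes, with 51.0% for the respiratory chain. These differences between lists were not tested.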

How the data were processed

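ATAC-seq was read from 4 peak lists of RAW264.7 cells, 2 control and 2 esculetin, grouped by the treatment in the labels. Per the study's methods and the submitters' processing notes, reads were trimmed (Trim Galore) and aligned to mm10 (Bowtie2), Sambamba was used to discard duplicates and reads with several mapping places, and the authors ran MACS2 on each library. Whether read ends were shifted for Tn5 is not given in the sources used here. Near-identical gene copies lose signal when reads with several places are discarded. The deposited lists give each summit's fold enrichment over background, a linear ratio, and its −log10 p and −log10 q as the authors' peak caller wrote them. They hold no read counts, so no count model was run. The background coverage of each library, which follows its depth, was solved from the deposited fold and −log10 p for 99.5% to 99.8% of 1500 sampled peaks per list.

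Genes, starts and promoter sequences came from RefSeq tables of GRCm38.p6, whose chromosomes are those of mm10. The TSS was the 5′ end of the gene span, with the strand from the promoter table for 78 genes of the set and from GENCODE vM39 for 18. Where both gave a strand for a coding gene, 15617 of 15718 were the same. In each library the strongest summit within 1 kb of the TSS by −log10 p was taken, and its percentile is the rank within the whole list. A percentile therefore depends on the length and make-up of its list. Except for some alternative settings, the same counts over all coding genes stand beside those of the set. No test was run over the genes of the set. The values of 1 gene of the set are not reported here.

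The genes and lists were chosen with earlier results of these data known. Genes named with values were, per complex and for assembly factors, the 2 highest and the lowest by mean percentile among those open in all libraries, and the 2 largest differences in each direction among genes with groups apart. Core subunits, pairs of common and restricted isoforms, and genes called in both libraries of 1 group only were also named. Alternatives covered the window, the choice of summit, the ranked value, the reference peaks, list length, the genes counted and each library left out. The calling and counting steps were tested on simulated lists. Python 3.11.15, pandas 2.3.3, NumPy 2.4.6 and matplotlib 3.10.9 were used.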

Additional observations from a re-analysis of the deposited data

How the results depend on the processing

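With 2 libraries per group the exact permutation test cannot go below p = 0.33, and a missing peak is a value below the caller's limit rather than a closed promoter. With lists cut to the 8677 strongest peaks, the difference in open genes was 11 (main -9) and that in median percentile 17.4 (main -8.31), 12 genes were higher (5) and 2 lower (16), 22 were open in all libraries (49) and the difference in genes with a gene-body peak was -3.5 (-10.5). Fewer peaks of the longer lists enter by construction. Control replicate 2 then had the fewest open genes and the lowest median percentile, and the counts of open genes overlapped between groups. Percentiles among promoter peaks gave 8 higher genes. With a missing peak set to 0, an alternative chosen after seeing the data, the difference in median percentile was -21.9 and 28 genes were lower. The same count over all coding genes is not given for it, so this is no result about the set. Leaving out each library in turn gave differences of -17.5 to -0.5 in open genes and -17.4 to -6.28 in median percentile, 7 to 20 higher genes, 20 to 33 lower genes, 49 to 63 genes open throughout, -0.5 to 5 bp in median summit position and -14 to -7 in genes with a gene-body peak. Fewer libraries make it easier by construction for groups not to overlap. With a library left out, the same counts over all coding genes are not given either.

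The labels number both groups 1 and 2. With a replicate block, same-numbered libraries compared as pairs, 6 genes were higher and 19 lower. The differences in open genes and median percentile were -9 and -8.31. The same counts over all coding genes are not given for this setting, so these are no result about the set. The deviations of same-numbered libraries had a correlation of -0.18 over the 49 genes and 0.006 over all coding genes, so the numbers were not taken as pairs. The peak names inside the esculetin lists carry other numbers than the labels. The difference in median summit position was 3.25 bp with a window of 500 bp, 0.5 bp with 2 kb and -1.5 bp with the nearest summit (main 2), all within the spread of 4.53 bp, so its direction is not settled. The other results computed with these windows, the nearest summit, the fold as the ranked value, lists without pseudogene peaks, structural subunits alone, either gene end or any listed start kept their direction and stayed within the spread or within 1.5 times. Open genes were not recounted with the nearest summit, the fold or lists without pseudogene peaks, and either gene end was run for open genes only.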
